A study of Mus musculus with 6 samples.

Results

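The protein-coding genes described here encode the protein subunits of the cytosolic ribosome. They were chosen by symbol, as Rpl or Rps followed by a number with an optional a or x, together with Rplp0, Rplp1, Rplp2 and Rpsa. This gave 76 of the 55401 genes in the count table, 46 of the large (60S) and 30 of the small (40S) subunit. Rpl29 was singled out because its level was already known to be low in one genotype, so its values and those of its copies are given as a description with no test, and the other 75 genes were set beside it. All 76 passed the filter on low counts (2 or more in 5 or more libraries) and entered the fit, which covered 22318 genes.

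The libraries were made from poly(A) RNA of primary Schwann cells (SCs), the glia that ensheathe axons of peripheral nerves, cultured from dorsal root ganglia of adult mice. 3 libraries were WT and 3 were Plxnb1-/- (labelled PB1 -/-, written KO below), a germline allele in which a gene-trap cassette with a transmembrane segment, lacZ and neo was inserted into the gene for the semaphorin receptor Plexin-B1. No other allele or agent is stated for either group. All cultures were grown with forskolin and neuregulin and depleted of fibroblasts with an antibody to Thy1. The cassette was inserted by targeting, and the paper states that all its mouse lines were kept on the same strain background. Whether the DNA around Plxnb1 was otherwise alike in the WT and KO cells was not tested. The study as a whole used both WT and heterozygous littermates as controls, whereas the labels of these libraries say WT. The comparison asks how the transcriptome of SCs without Plexin-B1 differs from that of WT SCs.

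Total counts per library ranged from 59252048 to 70967747 in WT and from 69385956 to 77280964 in KO. Plxnb1 itself read 61.8, 45.4 and 96.4 CPM (counts relative to the library total, scaled with edgeR's TMM factors as are all CPM below) in WT and 13.1, 16.6 and 18.5 CPM in KO, a log2 fold change of -2.08 with an edgeR adjusted p of 0.0449. These counts cover all exons of the gene, whereas the paper reports the loss in KO for the exons that follow the inserted cassette. The call was lost with limma on FPKM, under a stricter filter, and without WT replicate 1 or any one KO replicate, with adjusted p from 0.0648 to 0.420. All 9 SC markers were detected, and their summed level was 2340 to 2778 CPM in WT and 2812 to 3171 CPM in KO. WT replicate 2 stood apart from the other 5 libraries on the first principal component, at -47.4 against -7.52 to 34.0, so results that rest on it are also given without it.

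The ribosome joins a small subunit, which reads the mRNA, with a large subunit, which forms peptide bonds. Its proteins are made in near-equal amounts, their genes are among the most highly expressed in growing cells, and copies of them left without a partner are normally degraded. Rpl29 encodes eL29, a small basic protein on the surface of the 60S subunit that mice can live without. Ribosomal protein mRNAs have been copied back into mammalian genomes many times, leaving intronless processed copies whose reads are hard to tell from those of the parent gene.

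Rpl29 lies at chr9:106429454-106431568 on the plus strand (GRCm38), 2.67 Mb from the start of Plxnb1 on the same chromosome. Its transcript has 4 annotated exons, and the coding sequence begins in the second. Alignment of its transcript to annotated pseudogene transcripts found 67 copies, and 66 of them could be compared with it base by base. The 4 most abundant copies are shown because they carry 1 intronless sequence each that differs from the parent at few positions, while their counts differed between genotypes in opposite directions. They are Gm10709 at chr9:7751725-7752204 on the plus strand, Gm6344 at chr13:55085777-55086259 on the plus strand, Gm8210 at chr1:43189156-43189638 on the plus strand and Gm13841 at chr5:115801677-115802159 on the minus strand. All 4 are annotated pseudogenes. The first stretch covers coding bases 58 to 86, which lie in exon 3 of Rpl29 at chr9:106430328-106430356, and capitals mark the base of C72A in the copies that carry it and in Rpl29.
Rpl29: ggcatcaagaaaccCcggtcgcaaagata
Gm6344: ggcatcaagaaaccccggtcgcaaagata
Gm10709: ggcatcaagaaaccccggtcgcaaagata
Gm8210: ggcatcaagaaaccAcggtcgcaaagata
Gm13841: ggcatcaagaaaccAcggtcgcaaagata
The second stretch covers coding bases 412 to 460, in exon 4 at chr9:106431378-106431426. Capitals mark the bases in which a copy differs from Rpl29 and, in Rpl29, the bases concerned.
Rpl29: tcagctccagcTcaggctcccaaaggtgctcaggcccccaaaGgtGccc
Gm6344: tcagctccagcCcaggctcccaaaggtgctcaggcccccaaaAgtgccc
Gm10709: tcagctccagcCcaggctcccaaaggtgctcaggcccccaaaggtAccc
Gm8210: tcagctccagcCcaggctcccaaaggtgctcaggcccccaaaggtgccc
Gm13841: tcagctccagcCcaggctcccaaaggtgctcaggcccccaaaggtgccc

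Counted from 1 at the first base of the start codon, Gm8210 and Gm13841 had the same 3 substitutions relative to the Rpl29 reference, C72A, C300T and T423C. Gm6344 had C300T, T423C and G454A. Gm10709 had G205A, C300T, T423C and G457A. The change C72A was found in 3 of the 66 copies, the third being Gm12447, whereas C300T was found in 31 and T423C in 48 of them. Identity to Rpl29 was 99.2% for Gm10709 and 99.4% for the other 3.

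Rpl29 read 127.3, 86.3 and 127.7 CPM in the WT libraries and 8.34, 7.35 and 8.38 CPM in the KO libraries. The 2 genotypes did not overlap, and WT replicate 2 was the lowest WT library, at 67.6% of the mean of the other 2. The KO mean was 7.05% of the WT mean, a 14.2-fold difference, and the log2 fold change was -3.83 (SE 0.15), or -3.99 without WT replicate 2. The KO libraries held 533 to 653 counts on the gene and the WT libraries 5049 to 9045, so the KO level was well above the 3 counts taken as detected. Rpl29 made up 0.614%, 0.383% and 0.628% of all subunit counts in WT and 0.0441%, 0.0369% and 0.0426% in KO.

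The copies did not follow one direction. 2 of the 4 most abundant ones were low in KO like Rpl29. Gm10709 read 13.2, 10.9 and 14.2 CPM in WT and 1.34, 2.11 and 2.05 CPM in KO, a log2 fold change of -2.81 (SE 0.17). Gm6344 read 5.44, 4.22 and 6.18 CPM in WT and 0.281, 0.207 and 0.274 CPM in KO, a log2 fold change of -4.37 (SE 0.21). For both, every KO library was below every WT library, and WT replicate 2 was again the lowest WT library.

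Of the 3 copies with C72A, the 2 among the most abundant copies were high in KO. The third, Gm12447, failed the filter, with 0, 0 and 2 counts in WT and 0, 3 and 2 in KO. Gm8210 read 0.219, 9.05 and 0.819 CPM in WT and 14.4, 14.7 and 14.1 CPM in KO, a log2 fold change of 2.14 (SE 0.81), or 4.76 (SE 0.28) without WT replicate 2. Gm13841 read 6.33, 13.1 and 5.63 CPM in WT and 17.5, 15.1 and 15.5 CPM in KO, a log2 fold change of 0.95 (SE 0.27), or 1.43 (SE 0.10) without WT replicate 2. Every KO library was above every WT library for both copies, but the WT libraries were not alike. WT replicate 2, the library with the least Rpl29 among the WT, reached 62.9% of the KO mean for Gm8210 and 82.0% for Gm13841.

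**Figure D1:**
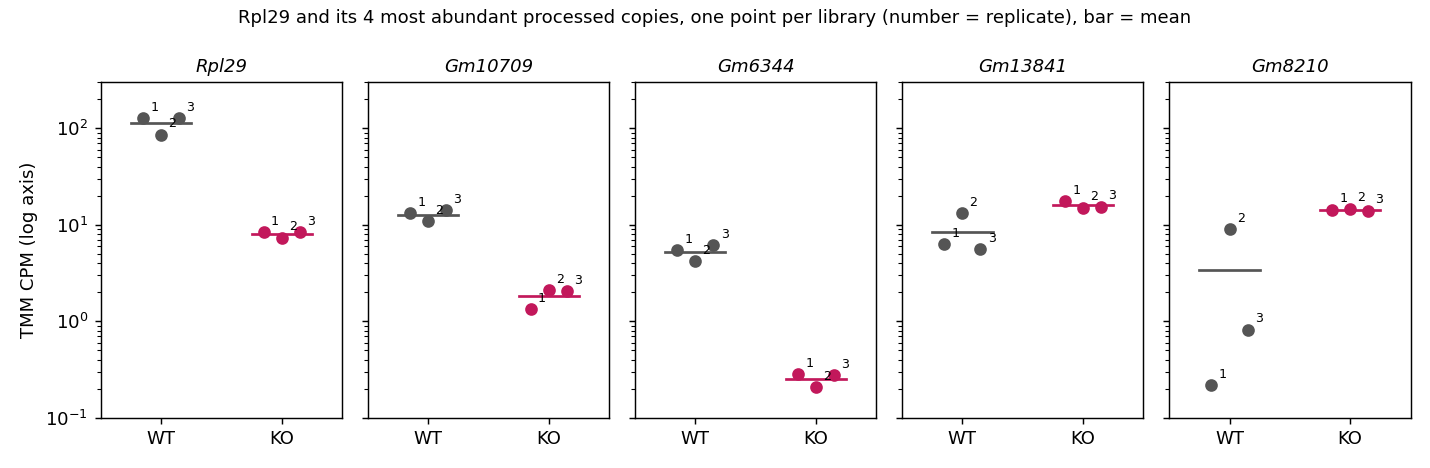
TMM CPM (log axis) of Rpl29 and its 4 most abundant copies in the 3 WT and 3 KO libraries, with one numbered point per replicate and a bar at the mean. Rpl29, Gm10709 and Gm6344 are lower in every KO library, Gm13841 and Gm8210 are higher, and WT replicate 2 lies between the other WT libraries and the KO libraries for Gm8210 and Gm13841.

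Among the 67 copies, 17 passed the filter, of which 12 had a negative and 5 a positive log2 fold change. In 5 of the 17 every KO library was below every WT library, beside 10.4% of all tested genes. In 2 of the 17 every KO library was above, beside 9.29% of all tested genes. Of the other copies without overlap, Gm5561 read 0.766, 0.735 and 0.777 CPM in WT by contrast with 0.102, 0.110 and 0.101 CPM in KO, and Gm15526 read 0.750, 0.256 and 0.452 CPM in WT and 0 to 0.0433 CPM in KO. Gm15454 also lay lower in KO, at 0.312 to 0.452 CPM in WT and 0.0865 to 0.262 CPM in KO. Gm14036 overlapped between genotypes, at 0.750, 1.62 and 0.805 CPM in WT and 1.18, 0.938 and 1.18 CPM in KO, with WT replicate 2 the highest library. 4931440P22Rik (log2 fold change -0.32) and Gm10548 (0.37) were the other tested copies with a mean of at least 0.2 CPM. The last of the tested copies (Gm12704, Gm11449, Gm7252, Gm43471, Rpl29-ps2, Gm13921 and Gm47399) read at most 0.234 CPM in any library. The 50 copies that failed the filter had at most 16 counts in any library. In 3 of them every KO library was still below every WT library, and for these the low KO counts themselves decided that they failed. They were Gm17669 (10, 6 and 16 counts in WT and 2, 1 and 0 in KO), Gm48088 (5, 4 and 2 in WT and 0 in each KO library) and Gm46203 (2, 1 and 5 in WT and 0 in each KO library).

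Rpl29 and its 67 copies summed to 157.6, 128.6 and 159.6 CPM in WT and 45.2, 42.8 and 43.7 CPM in KO. On this sum the difference was 3.39-fold, or -1.76 on the log2 scale, against 14.2-fold for the gene alone. The copies supplied 19.2%, 32.9% and 20.0% of the sum in WT and 81.5%, 82.8% and 80.8% in KO. The copies together measured 30.3, 42.4 and 31.9 CPM in WT and 36.9, 35.5 and 35.3 CPM in KO, so their total overlapped between genotypes, as did 10 of the 17 tested copies, whereas the 4 most abundant copies did not. How reads that align equally well to gene and copy were assigned is not given in the sources used here, and its part in these values was not tested.

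The subunit genes differed widely in level. Per kb of annotated exon, the WT mean of the 75 other genes ran from 30.2 to 724 CPM with a median of 125 CPM. The most abundant were Rplp1 (724 ± 57.4 CPM per kb, SD, n = 3) and Rplp0 (653 ± 29.9), both part of the stalk that recruits the translation GTPases, followed by Rps15 (410 ± 18.3), Rpl4 (404 ± 26.4), Rpl19 (340 ± 19.4) and Rpl41 (321 ± 14.5). Rplp1 and Rplp0 differed from each other by little more than 1 SD of Rplp1, whereas Rps15 and Rpl4 differed by less than the SD of either and Rpl19 and Rpl41 by less than the SD of Rpl19. The least abundant were Rpl21 (30.2 ± 2.79), Rps15a (31.7 ± 1.98) and Rpl35a (39.7 ± 1.49), and the first pair differed by less than the SD of Rpl21. The divisor is the union of all annotated exons of a gene, which for Rps15a (6270 bases) includes long minor transcripts, so a level per kb is low for such genes.

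Rpl29 held rank 54 of the 76 genes per kb in WT, at 101 ± 21.2 CPM per kb, within the range of the other subunits. In KO it held rank 76, at 7.13 CPM per kb. The median level per kb was 125 CPM for the other 60S genes and 124 CPM for the 40S genes.

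**Figure D2:**
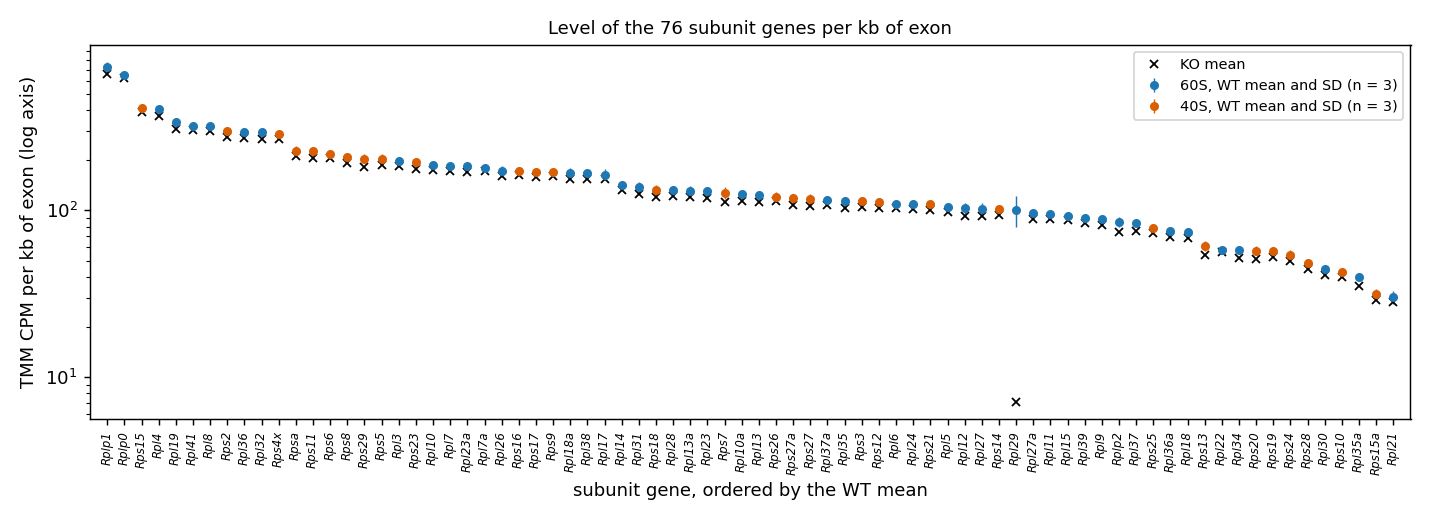
Level of the 76 subunit genes per kb of exon (TMM CPM per kb, log axis), ordered by the WT mean, with the WT mean and SD (n = 3) as coloured points and the KO mean as crosses. The KO cross lies just under the WT point for the other genes and far below it for Rpl29 alone.

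None of the 75 other subunit genes passed the test that the study's cutoffs define, an adjusted p below 0.05 with an absolute log2 fold change above 0.25. edgeR called 0 of 75, beside 8 of 22318 genes in all (0.0358%), and its lowest adjusted p among the 75 was 0.273. At an unadjusted p below 0.05 there were 39 of 75, all with the lower level in KO, beside 13.7% of all genes tested in either direction and 6.78% lower in KO. DESeq2 also called 0 of 75, with 35 at an unadjusted p below 0.05 and a lowest adjusted p of 0.0539, while it called 335 of all genes (1.5%).

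The estimates nevertheless all had one sign. The log2 fold change was negative for 75 of 75 genes, from -0.20 to -0.06 with a median of -0.12, which corresponds to KO means 3.93% to 12.8% below WT with a median of 7.73% below. Over all tested genes the median was 0.0050 and 48.5% were negative. Among the 2962 other tested genes whose mean level lay in the same range (79.7 to 1056 CPM), the median was 0.0025 and 48.8% were negative. Every KO library was below every WT library for 56 of 75 genes (74.7%), beside 10.4% of all tested genes and 16.9% of those in the same range of level. No subunit gene had every KO library above every WT library, beside 9.29% of all genes. The subunit genes share their libraries and are not independent of each other, so their common sign is one observation on 6 libraries, not 75.

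**Figure D3:**
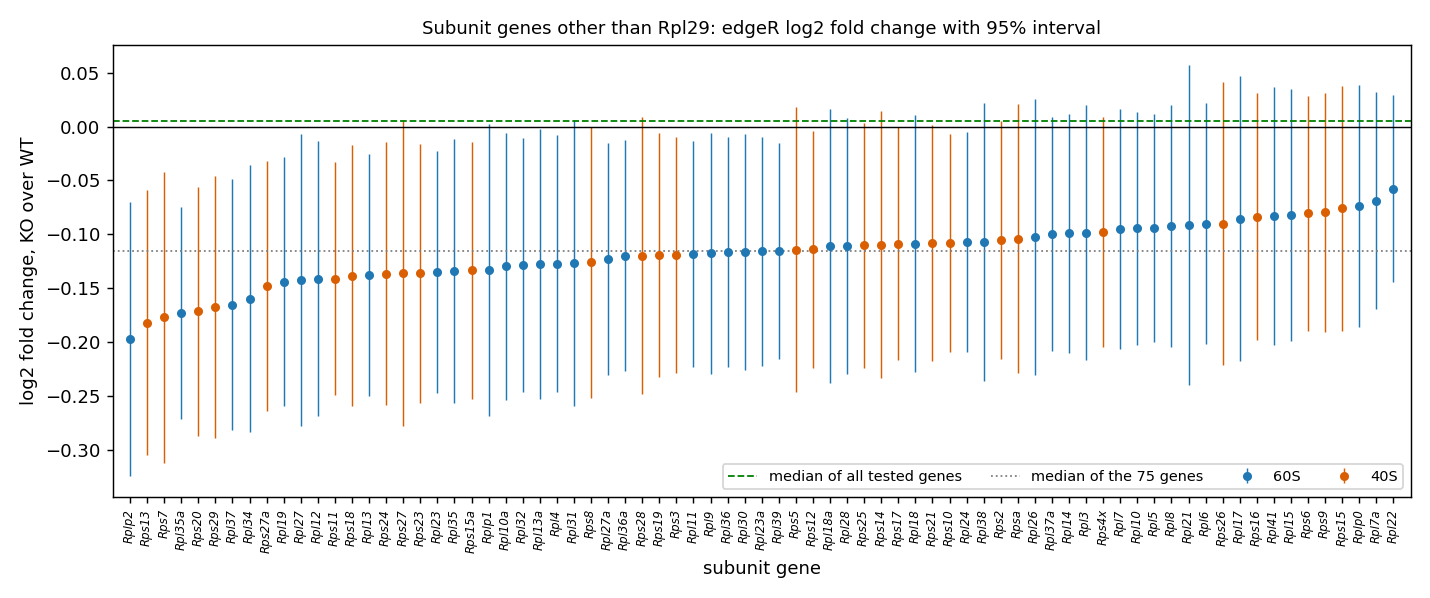
edgeR log2 fold change (KO over WT) with its 95% interval for the 75 subunit genes other than Rpl29, ordered by value and coloured by subunit, with the medians of the 75 genes and of all tested genes as lines. All points lie below 0, between -0.20 and -0.06, and 39 intervals lie wholly below 0.

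The 2 subunits did not separate. The median log2 fold change was -0.12 for the 45 other 60S genes and -0.12 for the 30 genes of the 40S subunit. KO lay below WT without overlap in 34 of 45 and 22 of 30, beside 10.4% of all tested genes. The ratio of 60S to 40S counts was 1.553, 1.547 and 1.565 in WT and 1.549, 1.552 and 1.546 in KO, and with Rpl29 left out it was 1.537, 1.537 and 1.549 in WT and 1.548, 1.551 and 1.545 in KO. The genotypes overlapped in both cases, and the sign of the difference between means turned from negative (-0.00577) to positive (0.00703).

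The largest differences were those of Rplp2, Rps13, Rps7, Rpl35a, Rps20 and Rps29. Rplp2, the partner of Rplp1 in the stalk, read 167.6, 190.8 and 172.1 CPM in WT and 148.3, 156.3 and 158.1 CPM in KO, a log2 fold change of -0.20 with a 95% interval of -0.32 to -0.07 and an edgeR adjusted p of 0.273. Rps13 read 160.9, 177.5 and 155.3 CPM in WT and 146.4, 141.8 and 146.9 CPM in KO (-0.18). Rps7 read 246, 282 and 243 CPM in WT and 224, 229 and 230 CPM in KO (-0.18). All 3 were highest in WT replicate 2 and none overlapped between genotypes. Rpl35a (-0.17), Rps20 (-0.17) and Rps29 (-0.17) were close behind. The order rested in part on WT replicate 2. Without it the lowest estimates were those of Rpl35a (-0.14), Rplp2 (-0.14), Rpl37 (-0.12), Rps13 (-0.12), Rps20 (-0.12) and Rps29 (-0.12), and that of Rps7 was -0.10.

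The smallest differences were those of Rpl22, Rpl7a, Rplp0, Rps15, Rps9 and Rps6, with log2 fold changes between -0.08 and -0.06. Rpl22, which mice can live without, read 166.2, 172.8 and 169.4 CPM in WT and 161.0, 163.8 and 163.6 CPM in KO, a log2 fold change of -0.06 with an interval of -0.14 to 0.03. Rplp0, the scaffold of the stalk and a common reference gene for RT-PCR, read 1068, 1139 and 1044 CPM in WT and 988, 1060 and 1040 CPM in KO, with the genotypes overlapping (-0.07, interval -0.19 to 0.04). Rps6, the kinase substrate used as a readout of mTOR activity, gave -0.08 (interval -0.19 to 0.03). Without WT replicate 2 the estimates nearest to 0 were those of Rpl21 (-0.0088), Rpl17 (-0.02) and Rpl15 (-0.02), and that of Rpl22 was -0.04.

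By position in the ribosome, all members of each group had negative estimates and none was called. Of the 3 stalk genes, Rplp2 was lowest (-0.20) and Rplp0 highest (-0.07). Rpl11 (-0.12) and Rpl5 (-0.09), which bind 5S rRNA and can also hold the ubiquitin ligase Mdm2, read 257, 268 and 250 against 228, 244 and 242 CPM, and 404, 430 and 393 against 374, 390 and 387 CPM, without overlap in either. The 7 genes at the rim of the exit tunnel, where the nascent chain leaves the ribosome, ran from -0.14 for Rpl19 to -0.09 for Rpl17, with a median of -0.12. The 40S head swivels as mRNA and tRNA move. Its 14 genes ran from -0.17 for Rps20 to -0.08 for Rps15 with the same median to 2 decimals. KO lay below WT without overlap in 12 of the 14, beside 74.7% of all 75 genes and 10.4% of all tested genes. Without WT replicate 2 the medians of the stalk, the 5S group, the exit tunnel rim and the 40S head were -0.06, -0.07, -0.07 and -0.07.

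The other 5 members on chromosome 9, the chromosome of Plxnb1 and Rpl29, were Rpsa, Rpl14, Rpl4, Rplp1 and Rps25. Their log2 fold changes were -0.10, -0.10, -0.13, -0.13 and -0.11, inside the range of the other members. The nearest of them, Rpsa, starts 11.03 Mb from the start of Plxnb1, against 2.67 Mb for Rpl29.

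The same libraries were highest and lowest for nearly all of the 75 genes. WT replicate 2 was the highest of the 6 libraries for 75 of 75 genes. The lowest was KO replicate 1 for 70 genes, KO replicate 2 for 3 and KO replicate 3 for 2. The median deviation of the 75 genes from their own mean was 0.03, 0.15 and -0.0017 on the log2 scale in the WT libraries and -0.11, -0.03 and -0.04 in the KO libraries. Without WT replicate 2 the median log2 fold change was -0.07 instead of -0.12, the range was -0.14 to -0.0088, all 75 genes remained negative, and 56 genes had no overlap, beside 13.6% of all genes tested then.

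The 76 genes took 2.08%, 2.22% and 2.03% of all counts in WT and 1.92%, 1.99% and 1.96% in KO (means 2.11 ± 0.10% and 1.96 ± 0.04%, SD, n = 3). The genotypes did not overlap, but the gap between WT replicate 3 (2.03%) and KO replicate 2 (1.99%) was smaller than the spread among WT libraries. Depth moved with this share. The library with the largest share, WT replicate 2, had the lowest total count (59252048), and that with the smallest share, KO replicate 1, had the highest (77280964). WT replicate 3 had 70967747 counts and a share of 2.03%, and KO replicate 3 had 69385956 counts and a share of 1.96%. Duplicate reads had been removed by the authors, and the part of depth in the difference was not tested. The share of the 100 most abundant other genes was likewise lower in KO, at 16.0% to 16.5% against 16.7% to 17.8% in WT.

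**Figure D4:**
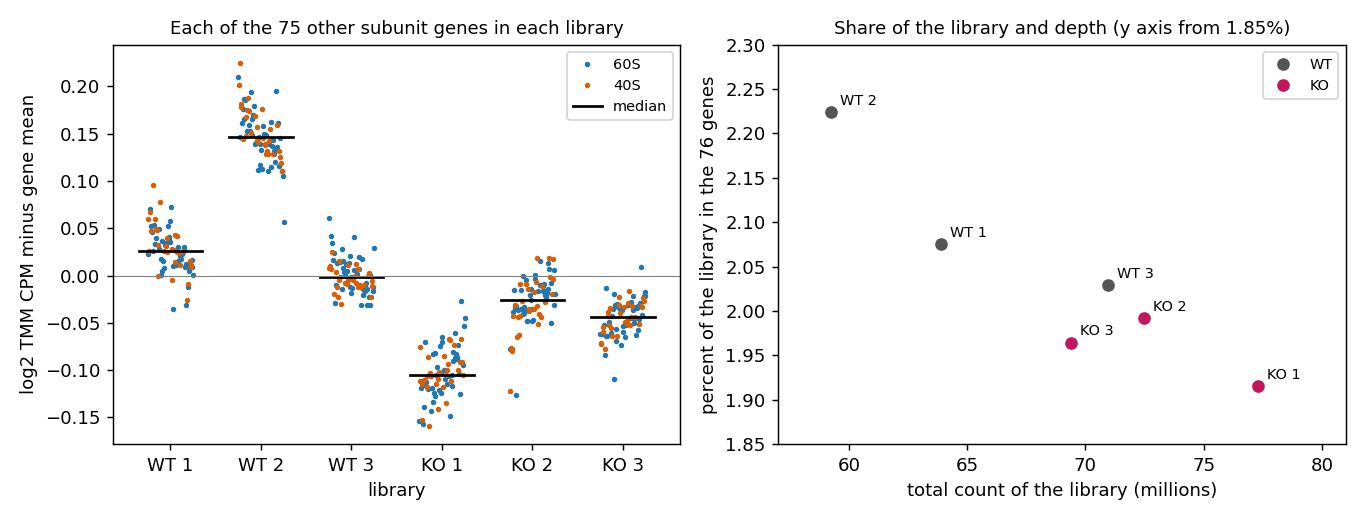
Left, log2 TMM CPM of each of the 75 other subunit genes minus the gene's mean over the 6 libraries, with the median per library as a bar. Right, percent of each library's counts in the 76 genes against its total count, on a y axis that does not start at 0. WT replicate 2 is the highest and KO replicate 1 the lowest library in both panels, and they have the lowest and the highest total count.

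Marker lists of other cell types also varied between libraries. The summed level of 6 fibroblast markers was 767, 1109 and 887 CPM in WT and 781 to 789 CPM in KO, highest in WT replicate 2, and that of 4 mural cell markers was 1034, 1307 and 1144 CPM in WT and 1005 to 1054 CPM in KO. The 8 sensory neuron markers summed to 15.03 to 18.7 CPM in WT and 19.2 to 27.4 CPM in KO, the 6 macrophage markers to 29.6 to 34.5 CPM and 34.6 to 40.7 CPM, and the 4 endothelial markers to 56.8 to 76.1 CPM and 59.6 to 65.3 CPM. By estimate, 8 of 9 SC, 8 of 8 sensory neuron and 6 of 6 macrophage markers were higher in KO. Lower in KO were 5 of 6 fibroblast, 4 of 4 endothelial and 2 of 4 mural cell markers. The median was 0.19 for the SC list (0.15 without WT replicate 2) and -0.23 for the fibroblast list (-0.02 without it). No marker was at 0 in all libraries, and edgeR called 0 genes of any marker list. At an unadjusted p below 0.05 there were 7 of the 9 SC markers and 0 to 2 of each other list, beside 13.7% of all tested genes. DESeq2 called 0 as well, with 7 of the 9 and 1 to 3 of each other list at an unadjusted p below 0.05. In bulk RNA, fewer cells of a type cannot be told apart from less RNA per cell, and the part of these cells in the subunit values was not tested.

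Each library was also scaled to the summed counts of the 75 genes, which centres these genes near 0 by construction, so that the values show only how they differed among themselves. The log2 fold changes then ran from -0.08 (Rplp2) to 0.05 (Rpl22), 0 had an unadjusted p below 0.05 in edgeR, and the lowest adjusted p was 0.438. This scaling shifted the median of all tested genes from 0.0050 to 0.12. Rpl29 stayed at -3.72 on it. On the share of the summed counts, every KO library was below every WT library for 12 of the 75 genes and above for 8. Over all tested genes on TMM CPM these shares were 10.4% and 9.29%.

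The spread between replicates was larger in WT. The coefficient of variation of the 75 genes was 1.93% to 9.26% among WT libraries (median 5.54%) and 0.652% to 5.83% among KO libraries (median 2.95%), and it was larger in WT for 69 genes. Counting error was at most 1.39% for a single library, since the lowest count of any of the 75 genes was 5191.

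Of 9 tested subunit genes and paralogs outside the symbol rule, 7 had negative and 2 positive estimates, with a median of -0.08, or -0.04 without WT replicate 2, and 3 (33.3%) had every KO library below every WT library, beside 10.4% of all genes. Rps3a1 and Fau, which also encode proteins of the 40S subunit, had log2 fold changes of -0.12 and -0.09. Rpl22l1, the paralog of Rpl22, read 37.2, 41.4 and 33.9 CPM in WT and 35.9, 32.9 and 32.1 CPM in KO (-0.16, interval -0.33 to 0.02). Rpl7l1 (-0.08), Rpl36al (-0.07) and Rps27l (-0.01) were detected beside Rpl7 (-0.10), Rpl36a (-0.12) and Rps27 (-0.14). The tissue-restricted paralogs were near or below the limit of detection, with Rpl10l at 0 counts in all 6 libraries, Rpl3l at no more than 0.0683 CPM and Rpl39l at no more than 0.130 CPM (0.31, interval -1.28 to 1.89), beside Rpl10, Rpl3 and Rpl39 with log2 fold changes of -0.09, -0.10 and -0.12. edgeR called 0 genes of this group, with 0 at an unadjusted p below 0.05, and DESeq2 called 0.

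Companion lists placed the subunits among other genes of protein synthesis. Of 42 ribosome biogenesis genes, 39 had negative and 3 positive estimates, with a median of -0.10, or -0.06 without WT replicate 2. The lowest was Npm1 (-0.18, interval -0.34 to -0.03, and -0.11 without WT replicate 2), the nucleolar chaperone nucleophosmin, and the highest was Mdn1 (0.07, and 0.02 without it), the ATPase that strips assembly factors from the 60S precursor. edgeR and DESeq2 called 0, with 16 and 12 genes at an unadjusted p below 0.05, beside 13.7% of all genes in edgeR. In 15 genes (35.7%) every KO library was below every WT library, beside 10.4% of all genes.

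Of 23 translation factors and regulators, 22 were negative with a median of -0.08, or -0.05 without WT replicate 2. Eif4ebp1, the inhibitor of the cap-binding protein, was lowest, at 111, 133 and 118 CPM in WT and 99.2, 106 and 98.5 CPM in KO (-0.25, edgeR adjusted p of 0.273, and -0.17 without WT replicate 2). In DESeq2 its adjusted p was 0.0499 and its log2 fold change -0.249, just short of the cutoff of 0.25. Mtor, the kinase that phosphorylates that inhibitor, was highest and the only positive one, at 81.4, 72.9 and 83.8 CPM in WT and 82.1, 89.9 and 92.9 CPM in KO (0.15, edgeR adjusted p of 0.349, and 0.10 without WT replicate 2). edgeR and DESeq2 called 0, with 7 and 6 at an unadjusted p below 0.05, beside 13.7% of all genes in edgeR. In 13 of the 23 (56.5%) every KO library was below every WT library, beside 10.4% of all genes.

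The mitochondrial ribosome translates the mitochondrial genome. Of its 78 genes, 60 were negative and 18 positive with a median of -0.04, or -0.03 without WT replicate 2, and 14 (17.9%) had every KO library below every WT library, beside 10.4% of all genes. Mrps10 was lowest (-0.27) and Mrps6 highest (0.08). edgeR called 0 of the 78, with 8 at an unadjusted p below 0.05, beside 13.7% of all tested genes. DESeq2 called 1 of the 78, which was Mrps10, beside 1.5% of all genes, with 4 at an unadjusted p below 0.05.

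p53 and its targets, which respond when free Rpl5 and Rpl11 bind Mdm2, gave 12 negative and 6 positive estimates of 18 with a median of -0.02, or -0.04 without WT replicate 2. Trp53 itself read 103, 107 and 108 CPM in WT and 101, 105 and 106 CPM in KO (-0.03, interval -0.12 to 0.07). Cdkn1a, the cell cycle inhibitor p21, gave -0.02 (interval -0.15 to 0.11) and Mdm2 0.04 (interval -0.05 to 0.14). Among those with a mean of at least 10 CPM, Plk2 was lowest (-0.28, and -0.12 without WT replicate 2) and Trp53inp1 highest (0.09). edgeR and DESeq2 called 0, each with 2 at an unadjusted p below 0.05, beside 13.7% of all genes in edgeR. In 2 of the 18 (11.1%) every KO library was below every WT library, beside 10.4% of all genes. Differences between the lists were not tested.

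**Figure D5:**
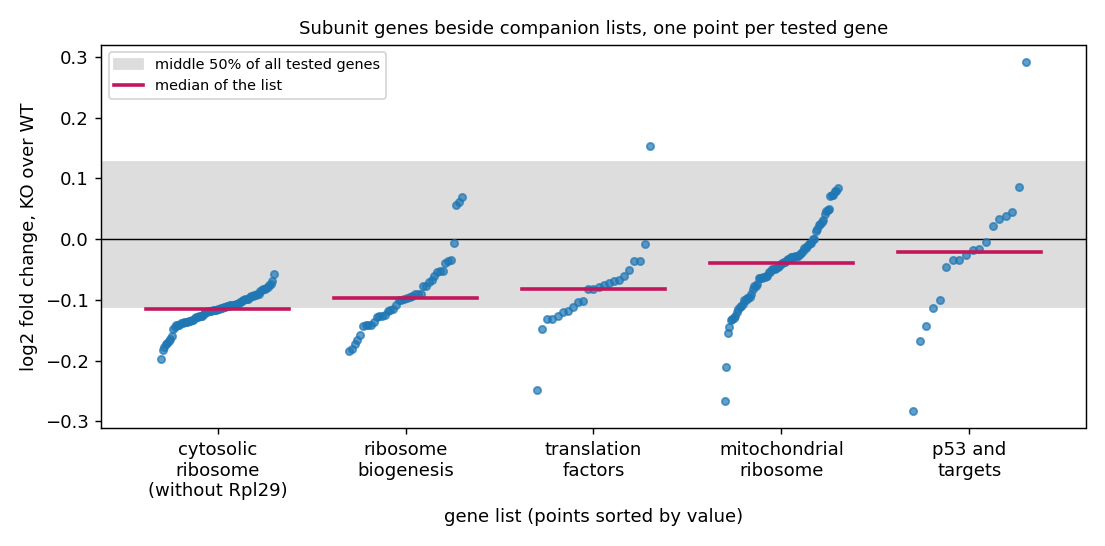
edgeR log2 fold change (KO over WT) of each tested gene in the cytosolic ribosome without Rpl29 and in 4 companion lists, with the median of each list as a bar and the middle 50% of all tested genes shaded. The medians are -0.12, -0.10, -0.08, -0.04 and -0.02 from left to right, and no gene of the cytosolic ribosome lies above 0.

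Processed copies were common among the other subunits too. In all, 75 of the 76 genes had at least 1 copy under the same rule, 1071 copies together. Counts on them came to a median of 5.35% of the parent gene's level in WT and 5.25% in KO, up to 61.0% for Rps10 in WT. Of 439 tested copies of other subunits, edgeR called 0, with 47 at an unadjusted p below 0.05, beside 13.7% of all tested genes. DESeq2 called 1 of the 439, beside 1.5% of all genes. It was Gm10736, a copy of Rpl41 with a log2 fold change of -0.46 and a DESeq2 adjusted p of 0.0443. Of the 155 with a mean of at least 1 CPM, 130 had negative estimates, with a median of -0.13, beside 48.5% negative over all tested genes. Their reads are hard to tell from those of the parent genes, so their sign is not a separate observation. No value without WT replicate 2 is given for these copies. 1 copy chosen after its values were seen was high in a single library. Gm10095, a copy of Rpl21 at chr12:86845778-86846467, read 17.4 CPM in KO replicate 3 and between 0.0469 and 0.256 CPM in the other 5 libraries, a fitted log2 fold change of 5.38 that rests on that library (edgeR adjusted p of 0.296).

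The promoters were examined because the estimates of these genes had one sign. RefSeq promoter sequences (GRCm38.p6) were matched for 56 of the 76 genes by symbol, and Rpl29 was not among them. The start regions of Rplp2, the gene with the lowest estimate, and of Rpl22, the gene with the highest, which has 2 listed starts, are shown over 30 bases in which the annotated start is the 16th, and capitals mark the longest run of C and T that comes within 3 bases of the start. The stretch of Rplp2 is chr7:141447636-141447665 and those of Rpl22 are chr4:152324421-152324450 and chr4:152325711-152325740, all on the plus strand, and the runs are 10, 4 and 1 bases long. Among further genes named above, Rps13 and Rps7 (-0.18 each) had runs of 2 and 5 bases. Rpl7a and Rplp0 (-0.07 each) had runs of 21 and 4 bases, and Rps15 (-0.08) had 3. These genes were picked from those with the lowest and the highest estimates, and the relation of run length to the estimate was not tested. Ribosomal protein mRNAs are known to begin with such a run, the 5′ terminal oligopyrimidine tract through which mTOR acts on their translation.
Rplp2: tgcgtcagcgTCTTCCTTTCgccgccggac
Rpl22: cgctgcttctggaatgTTCCagctcccact
Rpl22: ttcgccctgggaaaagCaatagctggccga
A run of at least 5 bases of C and T within 3 bases of the annotated start was present in 27 of the 56 (48.2%), beside 27.4% of all 27025 genes with a promoter. The search took the annotated RefSeq starts, so a run at any other start was not counted. Whether the mRNAs of these cells begin at the annotated starts was not tested. The motif CCGGAA, the core of ETS factor sites, was present on either strand in the 250 bases before the start of 23 of the 56 (41.1%), beside 13.6% of all genes, and GGGCGG in 28 of the 56, beside 35.4% of all genes. CACGTG was present in 5 (8.93%), beside 6.86%, and TATAAA in 3 (5.36%), beside 14.3%. The motifs can share bases where they adjoin, each was searched on its own, and a match is a description of letters.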

How the data were processed

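The authors trimmed reads with Trim Galore 0.6.5, aligned them to mm10 with Bowtie2 2.4.1, removed duplicates with SAMtools 1.10 and counted reads per gene on exons with featureCounts. The deposited counts are whole and not normalized. The FPKM deposited by the authors divide by the span of the gene rather than by its exons and were used only in an alternative. Whether counting used strand, although the kit is stranded, and how reads with several alignments were counted are not given in the sources used here, so copies that overlap other genes, such as Gm6344 and Gm8210, are uncertain.

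Symbols and exons came from GENCODE for GRCm38, a release older than the one of the study, which matched 55141 of 55401 identifiers. Genes that reached 2 counts in 5 or more libraries were tested with edgeR 4.0.16 (TMM, quasi-likelihood, genotype only, R 4.3.3) with Benjamini-Hochberg adjustment over all 22318 genes, as designed. Calls needed a log2 fold change beyond 0.25 in either direction as well as an adjusted p below 0.05. DESeq2 1.42.0 and limma 3.58.1 on log2(FPKM + 0.1) were alternatives. The scripts were tested on simulated data. Intervals are 95%. Limits of detection of 3 counts (0.0388 to 0.0506 CPM) cover counting error only. The labels do not say that replicates came from separate animals or cultures, so p-values measure the spread between these libraries.

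Copies were pseudogene transcripts aligned with blastn 2.17.0 to their best-scoring member on the same strand over at least 80% of their length at 90% identity or more. Members, gene lists and tests were chosen with earlier results of these data known. Named genes were Rpl29 and its tested copies, the 6 most and 3 least abundant members per kb, the 6 highest and 6 lowest fold changes, the extremes of 4 role groups and of each companion list (mean of at least 10 CPM), the paralog pairs and Plxnb1; others were added after their values were seen. 1 gene of the group outside the symbol rule is not reported here. Same-numbered libraries did not deviate together (correlations of -0.022, 0.0078 and 0.065), so replicate number was left out.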

Additional observations from a re-analysis of the deposited data

How the results depend on the processing

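The number of other subunit genes called was 0 under every alternative run (other scaling factors, other filters, DESeq2, limma on FPKM, the replicate block, no cutoff on the fold change and each library left out). Their median log2 fold change lay between -0.13 and -0.10 under the alternatives that kept all libraries and TMM-like scaling, and between -0.14 and -0.07 with 1 library left out, the latter without WT replicate 2. Scaling to the summed counts of the other subunits, added after seeing the data, gave a median of -0.0031, near 0 by construction. The count without overlap between genotypes was 53 on total-count CPM and 53 on FPKM, 12 on the share of the summed subunit counts, and 56 to 72 with 1 library left out. Lack of overlap is easier to reach with 1 library fewer, so 72 is not to be read against 56. Over all tested genes the share with KO below WT was 10.4% with 6 libraries and 13.6% without WT replicate 2. The difference in the share of the library (KO minus WT, -0.15 percentage points) was -0.14 without Rpl29, -0.16 with copies, and -0.19 to -0.095 with 1 library left out. The difference in the 60S to 40S ratio was 0.00703 without Rpl29 and -0.0099 to -0.00071 with 1 library left out. Rpl29 kept a log2 fold change between -3.99 and -3.72, and its log2 ratio was -1.76 with its copies summed. DESeq2 called 1 mitochondrial ribosome gene, Mrps10. Over all genes, 8 were called, 335 with DESeq2, 296 with no filter, 4 with limma on FPKM, 25 without WT replicate 2 and 4 to 7 without another library. Plxnb1 was not called with limma on FPKM, under the stricter filter, or without WT replicate 1 or any one KO replicate (adjusted p from 0.0648 to 0.420). With 1 library left out, Rpl39l ran from -0.23 to 0.78 (negative without WT replicate 3 or KO replicate 3), and Rps27l from -0.026 to 0.0019 (positive without WT replicate 2). The cause of these changes was not tested. With replicate number as a block, the median was -0.11, Rpl29 was at -3.81, 0 other subunits and 5 of all genes were called, and the numbers share no stated pairing. With 3 libraries a group, the SE of the other subunits was 0.04 to 0.07 on the log2 scale.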
